A study of Mus musculus with 12 samples.

Results

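The solute carrier family 25 (SLC25) is the family of transporters that carry metabolites across the inner mitochondrial membrane. Its members were read here in the RNA of cultured adipocytes of 3 PPARγ genotypes. A gene was taken as a member when its symbol starts with Slc25a, when it is neither Slc25a1 nor Slc25a20 nor a pseudogene symbol, and when it had at least 10 counts summed over the 12 libraries. Of 55573 genes in the count table, 48 have such a symbol and 41 met the rule. The 4 genes with too few counts were Slc25a31 and Slc25a41, each at 0 counts, Slc25a54 with 1 count and Slc25a48 with 5 counts.

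Stromal vascular fraction (SVF) cells, which remain when digested fat is freed of its mature adipocytes, were isolated from subcutaneous (inguinal) fat and turned into adipocytes in culture. The donors were C57BL/6 mice homozygous for 1 of 3 alleles of the nuclear receptor PPARγ. WT mice carried the wild-type allele, TA mice carried T166A, in which alanine at this position cannot be phosphorylated, and TD mice carried T166D, in which aspartate mimics the phosphorylated residue. Both changes are germline knock-ins made with CRISPR-Cas9 and are present in every cell type of the animal, so the SVF itself carried the allele before differentiation. Every culture received the same induction medium for 4 days, with 850 nM insulin, 1 nM triiodothyronine, 0.5 mM IBMX, 125 nM indomethacin and dexamethasone, followed by medium with insulin and triiodothyronine, and was harvested on day 8. Dexamethasone is given as 5 μM in the methods and as 5 mM in the sample labels. Each genotype had 4 libraries. Neither labels nor methods state the age and sex of the donors of these cultures or whether the libraries of a genotype came from separate mice or cultures, and p-values then measure only the spread between these libraries.

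Small charged molecules do not cross the inner mitochondrial membrane unaided. SLC25 carriers exchange or import ADP and ATP, phosphate, dicarboxylates, amino acids, cofactors, nucleotides and iron, and so join reactions of the matrix to those of the cytosol. In adipocytes they supply respiration with ADP and phosphate, move reducing equivalents in the malate-aspartate shuttle and bring in the amino acids and cofactors that mitochondrial enzymes use. PPARγ, the receptor that drives adipocyte differentiation, binds DNA with RXR at a direct repeat of the hexamer AGGTCA with 1 base between the copies (DR1).

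Promoter windows were read because the genotypes differ in a DNA-binding receptor and because many members moved in the same direction. RefSeq windows of GRCm38.p6, from 250 bases before to 50 bases after a transcript start, were found for 31 of the 41 members (41 windows) among 32851 windows of all genes. The windows of Slc25a33 and Slc25a34, the largest falls in TD, of Slc25a24 and Slc25a45, which rose in TD, and of Slc25a3, the phosphate carrier, are printed 5′ to 3′ on the strand of the gene. Capitals mark AGGTCA, or its reverse complement TGACCT, in Slc25a34 and Slc25a45 and the NRF1 motif in Slc25a3.
Slc25a33, chr4:149774218-149774517, minus strand: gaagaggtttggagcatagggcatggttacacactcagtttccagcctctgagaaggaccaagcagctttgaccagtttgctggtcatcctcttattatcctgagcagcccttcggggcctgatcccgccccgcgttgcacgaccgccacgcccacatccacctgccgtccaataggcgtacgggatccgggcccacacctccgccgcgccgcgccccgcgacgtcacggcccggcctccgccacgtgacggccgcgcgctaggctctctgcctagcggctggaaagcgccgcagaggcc
Slc25a34, chr4:141623785-141624084, minus strand: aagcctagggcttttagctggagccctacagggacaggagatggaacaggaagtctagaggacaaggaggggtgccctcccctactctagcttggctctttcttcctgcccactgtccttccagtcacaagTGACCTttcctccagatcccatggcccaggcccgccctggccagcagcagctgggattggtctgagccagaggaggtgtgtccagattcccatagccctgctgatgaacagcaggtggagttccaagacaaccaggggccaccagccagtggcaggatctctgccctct
Slc25a24, chr3:109122899-109123198, plus strand: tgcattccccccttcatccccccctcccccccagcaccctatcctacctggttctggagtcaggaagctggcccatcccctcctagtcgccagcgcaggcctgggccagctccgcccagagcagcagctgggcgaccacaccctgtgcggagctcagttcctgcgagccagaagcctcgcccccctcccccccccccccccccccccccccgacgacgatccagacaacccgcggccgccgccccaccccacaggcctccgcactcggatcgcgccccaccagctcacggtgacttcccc
Slc25a45, chr19:5877572-5877871, plus strand: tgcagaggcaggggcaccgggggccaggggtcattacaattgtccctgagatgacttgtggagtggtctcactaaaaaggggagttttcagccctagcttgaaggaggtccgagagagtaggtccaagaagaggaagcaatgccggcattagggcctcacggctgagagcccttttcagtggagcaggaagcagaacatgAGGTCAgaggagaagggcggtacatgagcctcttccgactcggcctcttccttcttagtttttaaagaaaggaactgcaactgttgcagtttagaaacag
Slc25a3, chr10:91123918-91124217, minus strand: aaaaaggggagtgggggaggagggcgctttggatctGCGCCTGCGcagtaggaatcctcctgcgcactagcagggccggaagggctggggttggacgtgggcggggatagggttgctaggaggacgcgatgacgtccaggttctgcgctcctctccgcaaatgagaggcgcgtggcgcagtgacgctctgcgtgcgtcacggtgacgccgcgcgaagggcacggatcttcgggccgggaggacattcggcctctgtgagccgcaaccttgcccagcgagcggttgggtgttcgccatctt

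A DR1, searched on both strands, was found in 0.0396% of all windows and in 0 of the 41 member windows. With 1 mismatch allowed it was found in 0.554% of all windows and again in 0 member windows. Motifs this rare are seldom seen in any 41 windows, and sites outside the windows were not searched. The hexamer AGGTCA alone, which DR1 and the ERR motif contain, was in 16.3% of all windows and in 4 member windows, those of Slc25a34, Slc25a39, Slc25a45 and Slc25a47. TCAAGGTCA, the motif of the estrogen-related receptors (ERR), was in 0.423% of all windows and in 0 of the members'. CCGGAAGT, bound by ETS factors such as GABP, was in 3.89% of all windows and likewise in 0 of the members'. GCGCNTGCG, the motif of NRF1, was in 6.31% of all windows and in 1 member window, 214 bases before the start of Slc25a3. The windows of Slc25a12 and Slc25a30, not printed, held none of these motifs. In TD against WT their log2 fold changes were 0.59 and 0.47, and that of Slc25a45 was 0.34. Whether any motif bears on these changes was not tested. Median GC content was 59.0% in the member windows and 52.7% in all windows, with a median of 15 and 7 CpG dinucleotides. Slc25a34 had 1 CpG in its window, Slc25a33 had 30 and Slc25a3 had 31. Windows for, among others, Slc25a2, Slc25a26, Slc25a27, Slc25a32, Slc25a35, Slc25a37, Slc25a44, Slc25a46 and Slc25a51 were not analysed here.

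Libraries held 18823619 to 20324286 counts in WT, 16950175 to 18182526 in TA and 16553324 to 18357864 in TD. Levels are given as CPM, counts scaled to a common library size after TMM normalization, and values in single libraries follow the order of replicates 1 to 4. Mitochondrially encoded transcripts took 4.92 to 5.88% of the counts in WT, 2.74 to 4.5% in TA and 2.86 to 3.57% in TD. For the markers, lower and higher mean an edgeR adjusted p under 0.05. In TD against WT 14.1% of all genes tested were lower and 14.9% higher, and in TA against WT 6.48% were higher. All 8 adipocyte markers, among them Adipoq and Plin1, were detected in every library, and all 8 were lower in TD than in WT. Their summed level was 19300 to 21400 CPM in WT, 18200 to 22900 CPM in TA and 13600 to 15200 CPM in TD. Of 10 fibroblast and preadipocyte markers, 9 were higher in TD than in WT and 5 in TA, with sums of 12100 to 16200 CPM in WT, 13300 to 24000 CPM in TA and 20900 to 30400 CPM in TD. All 5 endothelial markers were higher in TD than in WT and 2 in TA, with sums of 23.7 to 50.6, 45.2 to 79.7 and 92.2 to 117 CPM in WT, TA and TD. All 9 muscle markers tested were higher in TD than in WT and 2 in TA, with sums of 5.55 to 13.3, 18.9 to 72.9 and 19 to 272 CPM. Myog and Myod1 were at 0 in every WT library, and Myh1, Myh3, Myh4 and Ckm in at least 1 library. None of 6 macrophage markers passed the edgeR test in any comparison (at an unadjusted p under 0.05, 4 were higher in TD than in TA and 0 passed in the other comparisons), and the sums were 249 to 703, 120 to 511 and 519 to 713 CPM. The part of these differences in the values of the carriers was not tested. In RNA of a whole culture, fewer cells of a type and less RNA per cell cannot be told apart.

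**Figure D1:**
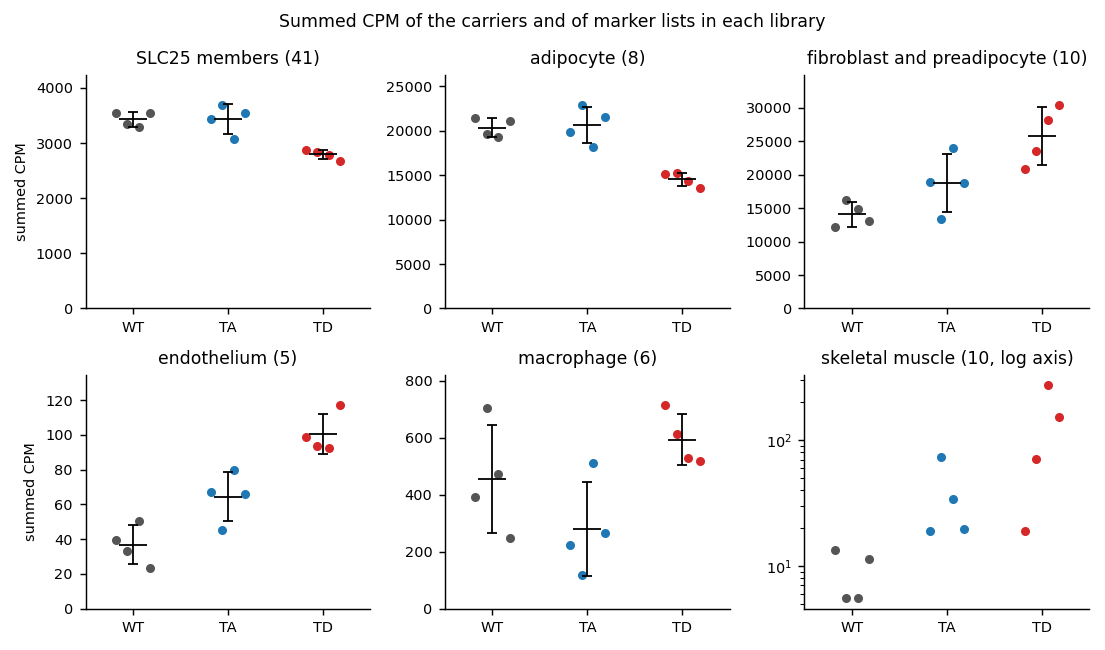
Summed CPM of the 41 SLC25 members and of 5 marker lists in each library, with the number of genes in parentheses. Points are libraries, black bars the mean ± SD of 4 libraries (none on the log axis of the muscle panel). The carriers summed to 2680 to 2880 CPM in TD, below the 3290 to 3550 CPM of WT and the 3070 to 3690 CPM of TA.

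The level of a carrier gene was set per kb of exon to compare genes with each other. Slc25a5, the ADP/ATP carrier ANT2, led the order in every genotype, with 305 ± 17.6 CPM per kb in WT, 338 ± 21 in TA and 248 ± 14.3 in TD (SD, n = 4). In WT it was followed by the dicarboxylate carrier Slc25a10 at 133 ± 16, the other ADP/ATP carrier Slc25a4 at 127 ± 10.2, the phosphate carrier Slc25a3 at 77.3 ± 2.55 and the glutathione carrier Slc25a39 at 74.9 ± 8.72 CPM per kb. Slc25a10 and Slc25a4 did not differ beyond their spread, nor did Slc25a3 and Slc25a39. The first 5 places were held by the same genes in TA and in TD. Slc25a33 moved from place 13 in WT to place 22 in TD, and Slc25a30 from place 18 to place 12. The lowest member that could be tested was Slc25a13, citrin, with 0.294 ± 0.0776 CPM per kb in WT.

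**Figure D2:**
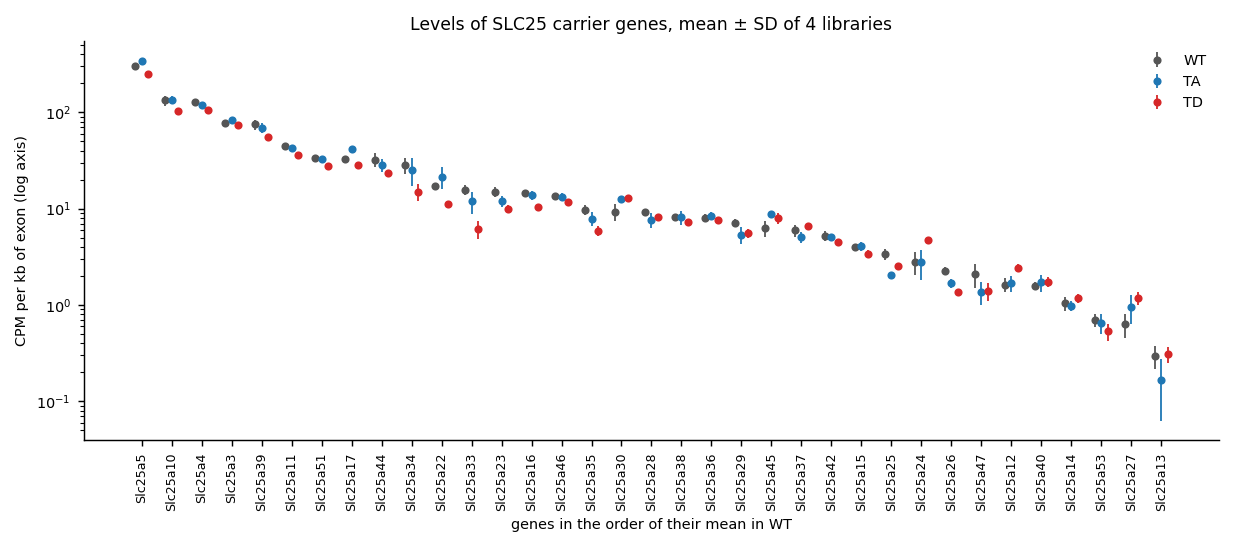
Level per kb of exon (CPM per kb, log axis) of 35 members tested, in the order of their WT mean, as mean ± SD of 4 libraries of WT (grey), TA (blue) and TD (red). Slc25a5 is highest and Slc25a13 lowest in every genotype, and the red points lie under the grey ones for most genes, with Slc25a24, Slc25a12, Slc25a30 and Slc25a27 among the exceptions.

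Of the 41 members, 36 had enough counts to be tested and 5 did not. Most carriers that changed in TD fell. Against WT, 17 of 36 members were lower in TD and 5 were higher at an adjusted p under 0.05 (edgeR quasi-likelihood test with Benjamini-Hochberg adjustment over 15117 genes), while 28.9% of all genes tested were called, 14.1% as lower and 14.9% as higher. The called share was 47.2% of the members for falls and 13.9% for rises. The median log2 fold change was -0.27 over the members and 0.01 over all genes tested. The TD libraries lay wholly below the WT libraries for 20 members and wholly above for 4, against 16.4% and 15.8% of all genes (32.2% in either direction). Leaving out any 1 library gave 18 to 24 calls among the members and 3134 to 4681 over all genes.

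TA differed less from WT. In TA, 3 members were higher and 3 lower than in WT, against 6.48% and 4.32% of all genes (10.8% in either direction), and the median log2 fold change was -0.06 over the members and -0.01 over all genes. The TA libraries lay wholly above WT for 4 members and wholly below for 2, against 7.71% and 5.85% of all genes (13.6% in either direction). The count of members called fell to 2 without WT replicate 1 and to 2 without WT replicate 4. Calls over all genes fell there from 1633 to 1115 and 1247. The count of members rose to 11 of 41 with no filter on low counts, where 7.36% of 29115 genes were called. In TD against TA, 10 members were lower and 4 higher, against 9.33% and 6.91% of all genes (16.2% in either direction), with a median of -0.20 over the members and 0.02 over all genes. The libraries of TD lay wholly below TA for 12 members and wholly above for 4, against 10.6% and 9.32% of all genes (19.9% in either direction). The count of members called was 7 without TA replicate 2, 9 without TD replicate 3, 8 without TD replicate 4 and 20 without TA replicate 3. Over all genes these fits gave 1395, 1560, 1419 and 3477 calls, against 2455 with all libraries. The comparisons of TD and of TA with WT share the WT libraries, and each one's own values are given side by side.

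Within TA, replicate 3 was at the end of the range on several counts. It had the lowest adipocyte marker sum of the TA libraries (18200 CPM), the highest fibroblast and preadipocyte sum (24000 CPM) and the lowest carrier sum (3070 CPM). Of the 36 members, 23 had their lowest TA value in this library. Replicate 2 of TA was at the other end of the TA range on these sums, with 22900, 13300 and 3690 CPM. Within TD, replicate 4 held the places that replicate 3 held in TA, with sums of 13600, 30400 and 2680 CPM. Of the 36 members, 17 had their lowest TD value there.

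**Figure D3:**
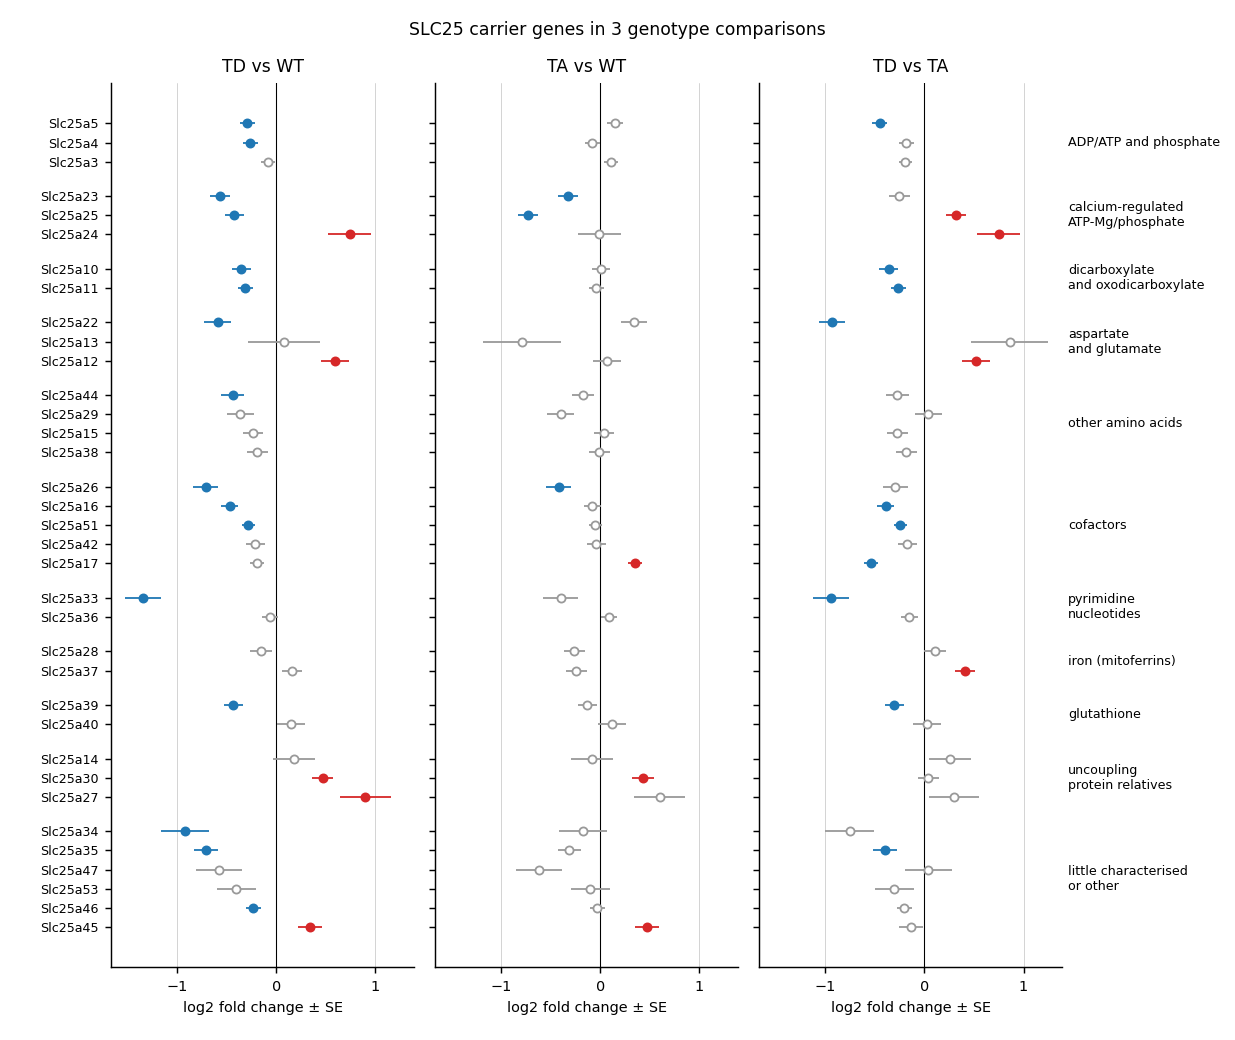
Log2 fold change ± SE of 35 members tested, grouped by what they carry, for TD against WT, TA against WT and TD against TA. Filled red points passed the test as higher, filled blue points as lower, and open grey points did not pass. In TD against WT 16 points are blue and 5 red, and in TA against WT 3 are blue and 3 red.

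The ADP/ATP and phosphate carriers, which supply ATP synthase with its substrates and export its product, held 2 falls among 3 genes in TD against WT. Of all genes tested, 14.1% were lower in that comparison. Slc25a5 stood at 535, 471, 485 and 515 CPM in WT, at 566, 585, 507 and 570 CPM in TA and at 434, 424, 389 and 389 CPM in TD. Every TD library lay below every WT and every TA library, while WT and TA overlapped. The log2 fold change was -0.29 ± 0.08 (SE) in TD against WT (edgeR adjusted p = 0.00907) and -0.45 ± 0.08 in TD against TA (edgeR adjusted p = 0.000915). Slc25a4 (ANT1) stood at 329, 287, 273 and 303 CPM in WT, at 271, 294, 262 and 297 CPM in TA and at 256, 258, 243 and 238 CPM in TD. It fell in TD against WT by 0.26 on the log2 scale (edgeR adjusted p = 0.0162), without overlap of the libraries, and TA overlapped WT. That call was lost with library totals as the scaling (edgeR adjusted p = 0.0566) and without WT replicate 1 (0.0692), TD replicate 3 (0.0513) or TD replicate 4 (0.0554). Slc25a3, which carries phosphate and copper, stood at 435, 445, 413 and 422 CPM in WT, at 453, 483, 445 and 474 CPM in TA and at 397, 400, 424 and 403 CPM in TD. It passed no edgeR test over the 12 libraries, with log2 fold changes of -0.08 in TD and 0.11 in TA against WT. The value in TD against TA was -0.19 (edgeR adjusted p = 0.0663). That comparison passed with DESeq2 (-0.20, DESeq2 adjusted p = 0.0023) and without TA replicate 3 (-0.21, edgeR adjusted p = 0.0401). Processed pseudogene copies resemble these genes, and how reads shared with them were counted is not stated, so their levels carry that uncertainty.

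The calcium-regulated ATP-Mg/phosphate carriers, which adjust the adenine nucleotide pool of the matrix when cytosolic calcium rises, did not move as a group. In TD against WT, 2 fell and 1 rose, where 14.1% of all genes tested were lower and 14.9% higher. Slc25a24 stood at 8.61, 12.2, 11.3 and 6.58 CPM in WT, at 10.3, 7.63, 14.0 and 6.56 CPM in TA and at 16.4, 16, 14.8 and 17.6 CPM in TD. All TD libraries were above all others, and TA and WT overlapped. It rose by 0.74 ± 0.21 on the log2 scale in TD against WT (edgeR adjusted p = 0.0173), a fold of 1.67, and 0.75 ± 0.21 in TD against TA (edgeR adjusted p = 0.0273). The WT and TA values were spread widely, and the rise against WT was lost without WT replicate 1 (0.0576) or TD replicate 4 (0.051), and that against TA without TA replicate 1, 2 or 4 or TD replicate 2 or 4 (edgeR adjusted p of 0.053, 0.0867, 0.0666, 0.0536 and 0.0788).

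Slc25a25 stood at 25.3, 25.0, 24.3 and 32.0 CPM in WT, at 17.0, 15.9, 14.6 and 16.6 CPM in TA and at 19.6, 19, 21.1 and 20.1 CPM in TD. The genotypes did not overlap at all, with TA lowest and TD between TA and WT. Its log2 fold change in TA against WT, -0.73 ± 0.10 (edgeR adjusted p = 9.49e-05), was the largest among the members that passed as lower in TA, and it also fell in TD against WT, by 0.42 (edgeR adjusted p = 0.00441). The rise from TA to TD was 0.32 (edgeR adjusted p = 0.0394) and was lost without TA replicate 2 (0.0838) or 3 (0.077) or without TD replicate 1 (0.0597), 2 (0.0579), 3 (0.113) or 4 (0.0897). Exons of Slc25a25 overlap those of Naif1 on the opposite strand (mean counts of 384.2 and 138.8), and since the strand setting of the counting is not stated its level is uncertain. Slc25a23 stood at 83.5, 67.7, 75.3 and 88.2 CPM in WT, at 62.4, 68.3, 52.0 and 69.5 CPM in TA and at 58.4, 55.0, 52.4 and 46.8 CPM in TD. TD lay below every WT library, with a log2 fold change of -0.57 ± 0.10 (edgeR adjusted p = 0.000598). TA overlapped WT and passed narrowly, with -0.32 ± 0.10 (edgeR adjusted p = 0.0494). This last call was lost without WT replicate 1, 3 or 4, TA replicate 1 or 3, or TD replicate 1, 2 or 3 (edgeR adjusted p from 0.0524 to 0.157), with DESeq2 size factors (0.0508), with the replicate block (0.0551) and in a fit to the 8 libraries compared (0.0795), while TD against TA (-0.25) passed without TA replicate 3 (-0.33, edgeR adjusted p = 0.0191).

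Both dicarboxylate carriers tested fell in TD, where 14.1% of all genes tested were lower against WT and 9.33% against TA. Slc25a10, which exchanges malate or succinate for phosphate, ranged from 408 to 532 CPM in WT, from 399 to 496 CPM in TA and from 349 to 371 CPM in TD, with a log2 fold change of -0.35 ± 0.09 in TD against WT (edgeR adjusted p = 0.00857) and -0.36 against TA (edgeR adjusted p = 0.0127). Slc25a11, the oxoglutarate/malate carrier of the malate-aspartate shuttle, ranged from 89.1 to 98.4 CPM in WT, from 83.3 to 99.5 CPM in TA and from 69.1 to 83.5 CPM in TD. It fell by 0.31 on the log2 scale in TD against WT (edgeR adjusted p = 0.00541) and by 0.26 against TA (edgeR adjusted p = 0.0237). The fall against TA was lost without TA replicate 2 (0.0995) or without TD replicate 2 (0.0521), 3 (0.0663) or 4 (0.0937), and with library totals (0.0844). Slc25a11 shares exon sequence with Rnf167 on the opposite strand (mean counts of 1594.8 and 408.9). Neither carrier passed the test in TA against WT, where the log2 fold changes were 0.01 and -0.04.

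The carriers of aspartate and glutamate went opposite ways in TD. Slc25a12 (aralar), which exports aspartate in exchange for glutamate in the malate-aspartate shuttle, stood at 10.0, 12.7, 14.3 and 10.6 CPM in WT, at 13.0, 9.22, 14.8 and 12.9 CPM in TA and at 17.9, 16, 19.5 and 18.3 CPM in TD. Every TD library exceeded every other library, and WT and TA overlapped. The log2 fold change was 0.59 ± 0.14 against WT (edgeR adjusted p = 0.0047), a fold of 1.5, and 0.52 ± 0.14 against TA (edgeR adjusted p = 0.0177), the latter being lost without TA replicate 2 (0.0616) or TD replicate 3 (0.0626). Slc25a22, which imports glutamate with a proton, stood at 113, 97.4, 98.4 and 99.0 CPM in WT, at 122, 165, 89.6 and 139 CPM in TA and at 65.1, 65.5, 69.5 and 70.9 CPM in TD. TD was below every other library, and 3 of 4 TA libraries were above every WT library. It fell by 0.59 on the log2 scale against WT (edgeR adjusted p = 0.00449) and by 0.93 against TA (edgeR adjusted p = 0.000356), a fold of 0.526. In TA against WT the value of 0.34 did not pass (edgeR adjusted p = 0.126). It passed without TA replicate 3 (0.48, edgeR adjusted p = 0.0025) and with no filter on low counts (0.32, edgeR adjusted p = 0.00396). Slc25a13 (citrin), the paralog of Slc25a12, had 0.307 to 1.49 CPM over all libraries and passed no test. Without TA replicate 3 it passed in TA against WT (-1.31, edgeR adjusted p = 0.0446) and in TD against TA (1.38, edgeR adjusted p = 0.0173).

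Of 4 tested carriers of other amino acids, 1 fell in TD against WT, where 14.1% of all genes tested were lower. Slc25a44, which imports branched-chain amino acids, ranged from 96.3 to 139 CPM in WT, from 81.8 to 117 CPM in TA and from 83.8 to 85.1 CPM in TD, and fell by 0.44 in TD against WT (edgeR adjusted p = 0.00675). In TD against TA its value of -0.27 passed without TA replicate 3 (-0.36, edgeR adjusted p = 0.0153) and with no filter (-0.26, edgeR adjusted p = 0.0297). The values for Slc25a29, a carrier of basic amino acids, were -0.36 in TD against WT (edgeR adjusted p = 0.0524) and -0.40 in TA against WT (edgeR adjusted p = 0.0644). The TD value passed without WT replicate 4 (edgeR adjusted p = 0.0421), TA replicate 3 (0.0209) or TA replicate 4 (0.0467). It also passed with DESeq2 size factors (0.0477), with no filter (0.0281), in a fit to the 8 libraries compared (0.0191) and with DESeq2 (DESeq2 adjusted p = 0.0399). The TA value passed without TA replicate 4 (edgeR adjusted p = 0.0396), with no filter (0.0175) and with DESeq2 (DESeq2 adjusted p = 0.0431). The ornithine carrier Slc25a15 and the glycine carrier Slc25a38, which serves heme synthesis, had log2 fold changes of -0.23 and -0.19 in TD against WT and of 0.04 and -0.01 in TA against WT, none of which passed. Slc25a15 passed without TD replicate 1 in TD against WT (-0.30, edgeR adjusted p = 0.0473) and against TA (-0.34, 0.0416), and without TA replicate 3 in TD against TA (-0.33, 0.0318).

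Of the 5 cofactor carriers reported here, 3 fell in TD against WT, where 14.1% of all genes tested were lower. Slc25a26, which imports S-adenosylmethionine, stood at 12, 9.68, 11.1 and 10.5 CPM in WT, at 9.24, 7.26, 7.79 and 8.00 CPM in TA and at 6.76, 6.79, 6.76 and 6.16 CPM in TD, so that the genotypes did not overlap. It fell in TD against WT by 0.71 (edgeR adjusted p = 0.000522) and in TA against WT by 0.42 (edgeR adjusted p = 0.0336). TD against TA did not pass (-0.29, edgeR adjusted p = 0.131), nor did it under any of the 19 alternatives. The call in TA was lost without WT replicate 1, 3 or 4 or TA replicate 2, 3 or 4 (edgeR adjusted p from 0.0539 to 0.105), with no filter on low counts (0.0754) and in a fit to the 8 libraries compared (0.0675). Exons of Slc25a26 overlap Lrig1 on the opposite strand, which had a mean of 1433.0 counts against 156.6, so these values are uncertain.

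Slc25a17, the peroxisomal carrier of coenzyme A, FAD and NAD, was the cofactor carrier that rose in TA. It stood at 102, 88.7, 87.7 and 94.0 CPM in WT, at 123, 127, 111 and 113 CPM in TA and at 83.3, 82.1, 81.9 and 78.3 CPM in TD. The order TA, WT, TD held for every library, without overlap. Against WT it rose in TA by 0.35 ± 0.07 (edgeR adjusted p = 0.00343) and -0.54 ± 0.07 in TD against TA (edgeR adjusted p = 7.44e-05). TD against WT did not pass (-0.19, edgeR adjusted p = 0.0515), and did so without WT replicate 2 (0.0476) or 3 (0.0439) or without TA replicate 2 (0.0492), 3 (0.0444) or 4 (0.0435). It also passed with DESeq2 size factors (edgeR adjusted p = 0.0449), in a fit to the 8 libraries compared (0.0388) and with DESeq2 (DESeq2 adjusted p = 0.0278). Of the remaining cofactor carriers, Slc25a16, linked to coenzyme A transport, fell by 0.47 in TD against WT (edgeR adjusted p = 0.000557) and by 0.39 against TA (edgeR adjusted p = 0.00422). Slc25a51, which imports NAD, fell by 0.28 (edgeR adjusted p = 0.00401) and by 0.24 (edgeR adjusted p = 0.0209). Slc25a42, a carrier of coenzyme A, had -0.21 in TD against WT (edgeR adjusted p = 0.1), which passed without WT replicate 3 (-0.29, 0.0198). The fall of Slc25a51 against TA was lost without TA replicate 1 (0.0573), TA replicate 2 (0.0662) or TD replicate 4 (0.0838), with library totals (0.0862) and with no filter (0.0767).

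The largest fall of the family was that of Slc25a33, which imports pyrimidine nucleotides for mitochondrial DNA and RNA synthesis. It stood at 33.6, 29.0, 30.8 and 25.5 CPM in WT, at 21.3, 29.0, 14.9 and 24.8 CPM in TA and at 14.5, 10.4, 12.9 and 9.03 CPM in TD. TD lay below every other library, and TA reached from just above TD into the WT range. On the log2 scale it fell by 1.34 ± 0.18 in TD against WT (edgeR adjusted p = 0.000176), a fold of 0.394, and by 0.94 ± 0.185 in TD against TA (edgeR adjusted p = 0.00345). In TA against WT it was -0.40 (edgeR adjusted p = 0.17). That comparison passed without TA replicate 2 (-0.55, edgeR adjusted p = 0.0461) and with no filter on low counts (-0.42, edgeR adjusted p = 0.00496). Its paralog Slc25a36, which also carries pyrimidine nucleotides, ranged from 68.5 to 85.9 CPM in WT, from 71.2 to 90.7 CPM in TA and from 70 to 74.2 CPM in TD. It passed no test, with log2 fold changes of -0.06 in TD and 0.09 in TA against WT.

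Neither mitoferrin, the carriers that bring iron to heme and iron-sulfur cluster synthesis, changed against WT by this test. Slc25a37 (mitoferrin 1) stood at 29.6, 41.5, 38.0 and 34.4 CPM in WT, at 26.7, 27.9, 35.5 and 31.2 CPM in TA and at 39.1, 39.6, 39.3 and 43.0 CPM in TD. TD lay wholly above TA, with a log2 fold change of 0.41 ± 0.105 (edgeR adjusted p = 0.0131), and WT overlapped both. Slc25a28 (mitoferrin 2) ranged from 31.2 to 38.4 CPM in WT, from 23.3 to 34.3 CPM in TA and from 30.0 to 32.1 CPM in TD. Its log2 fold changes of -0.15 in TD and -0.26 in TA against WT did not pass, though TA passed without TA replicate 4 (-0.37, edgeR adjusted p = 0.0374). Of the glutathione carrier pair, Slc25a39 ranged from 180 to 237 CPM in WT, from 157 to 208 CPM in TA and from 148 to 157 CPM in TD. It fell by 0.43 in TD against WT (edgeR adjusted p = 0.00239) and by 0.30 against TA (edgeR adjusted p = 0.0329). The latter was lost without TA replicate 1, 2 or 4 and without any of the 4 TD replicates (edgeR adjusted p from 0.051 to 0.121), and with library totals (0.0773). Slc25a40, with 10.6 to 17.8 CPM over all libraries, passed no test.

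The relatives of the uncoupling proteins, whose transport role is less settled, rose or did not pass. Slc25a30 stood at 34.7, 47.1, 51.9 and 36.7 CPM in WT, at 60.0, 61.1, 53.3 and 54.8 CPM in TA and at 61.6, 54.8, 59.8 and 59.4 CPM in TD. Both mutants lay above every WT library and overlapped each other. Slc25a30 rose by 0.47 ± 0.11 in TD (edgeR adjusted p = 0.00336) and by 0.43 ± 0.11 in TA (edgeR adjusted p = 0.0138) against WT, and TD differed from TA by 0.04. The call in TA was lost without WT replicate 1 (0.34, edgeR adjusted p = 0.053) or WT replicate 4 (0.36, edgeR adjusted p = 0.0524). Slc25a27 (UCP4), a low gene with 1.48 to 2.88 CPM in WT, 2.21 to 4.95 CPM in TA and 4.26 to 5.66 CPM in TD, rose by 0.90 ± 0.26 in TD against WT (edgeR adjusted p = 0.0136). Its value of 0.60 in TA did not pass, and passed without TA replicate 2 (0.78, edgeR adjusted p = 0.0431). Slc25a14 (UCP5), with 1.86 to 2.98 CPM over all libraries, passed no test.

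In the last group, carriers that are little characterised or have another role, 3 of 6 fell and 1 rose in TD against WT. Of all genes tested, 14.1% were lower and 14.9% higher there. Slc25a34 stood at 71.8, 97.1, 64.5 and 68.3 CPM in WT, at 59.5, 82.8, 40.1 and 86.3 CPM in TA and at 49.0, 42.2, 38.3 and 30.1 CPM in TD. TD was below WT in every library, with a log2 fold change of -0.92 ± 0.245 (edgeR adjusted p = 0.0175), and TA overlapped both. The call was lost without TD replicate 4 (-0.81, edgeR adjusted p = 0.0526). TD against TA did not pass (-0.75, edgeR adjusted p = 0.063). It passed with DESeq2 (-0.76, DESeq2 adjusted p = 0.0176) and without TA replicate 3 (-0.93, edgeR adjusted p = 0.00511). Slc25a35 stood at 36.2, 35.1, 30.4 and 41.4 CPM in WT, at 26.1, 35.4, 24.5 and 29.6 CPM in TA and at 23.4, 24.4, 19.9 and 19.5 CPM in TD. The TD values were the lowest, and TA overlapped WT. It fell by 0.71 in TD against WT (edgeR adjusted p = 0.000379) and by 0.40 against TA (edgeR adjusted p = 0.0289), the latter being lost without TA replicate 2 or 4 or TD replicate 3 or 4 (edgeR adjusted p of 0.134, 0.0686, 0.0929 and 0.0976) and with library totals (0.0643). In TA against WT the value of -0.31 did not pass. It passed without TA replicate 2 (-0.42, edgeR adjusted p = 0.0208) and with no filter (-0.32, edgeR adjusted p = 0.0259).

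Slc25a45 stood at 14.7, 22.3, 17.0 and 15.5 CPM in WT, at 24.0, 25.2, 23.7 and 23.4 CPM in TA and at 23.4, 25.0, 20.9 and 18.7 CPM in TD. TA exceeded every WT library, and TD overlapped WT. Slc25a45 rose by 0.47 ± 0.12 in TA (edgeR adjusted p = 0.0177) and 0.34 ± 0.12 in TD (edgeR adjusted p = 0.0442) against WT. The call in TA was lost without WT replicate 1 (0.0698) or 4 (0.0606), and that in TD without WT replicate 1, 3 or 4, TA replicate 1, or TD replicate 1, 2 or 3 (edgeR adjusted p from 0.0521 to 0.142) and in a fit to the 8 libraries compared (0.0538). Slc25a46, an outer membrane protein of mitochondrial dynamics, fell by 0.23 in TD against WT (edgeR adjusted p = 0.0247), a call lost without WT replicate 2 (0.0525), WT replicate 3 (0.0575), TD replicate 3 (0.0607) or TD replicate 4 (0.0664), with library totals (-0.16, 0.0996) and with no filter (0.0509). Against TA its value was -0.20, which passed without TA replicate 4 (-0.25, edgeR adjusted p = 0.0187) and with DESeq2 (-0.21, DESeq2 adjusted p = 0.0395). Slc25a47, with 2.95 to 7.95 CPM, had -0.58 in TD and -0.62 in TA against WT, neither of which passed. It passed in TD without WT replicate 3 (-0.75, edgeR adjusted p = 0.0192) or TD replicate 1 (-0.71, 0.0441), and in TA without WT replicate 3 (-0.80, 0.0322) or TA replicate 4 (-0.82, 0.0431). With no filter it passed in TD (-0.58, edgeR adjusted p = 0.0276) and in TA (-0.63, edgeR adjusted p = 0.0272). Slc25a53, with 3.30 to 7.01 CPM, passed no test.

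**Figure D4:**
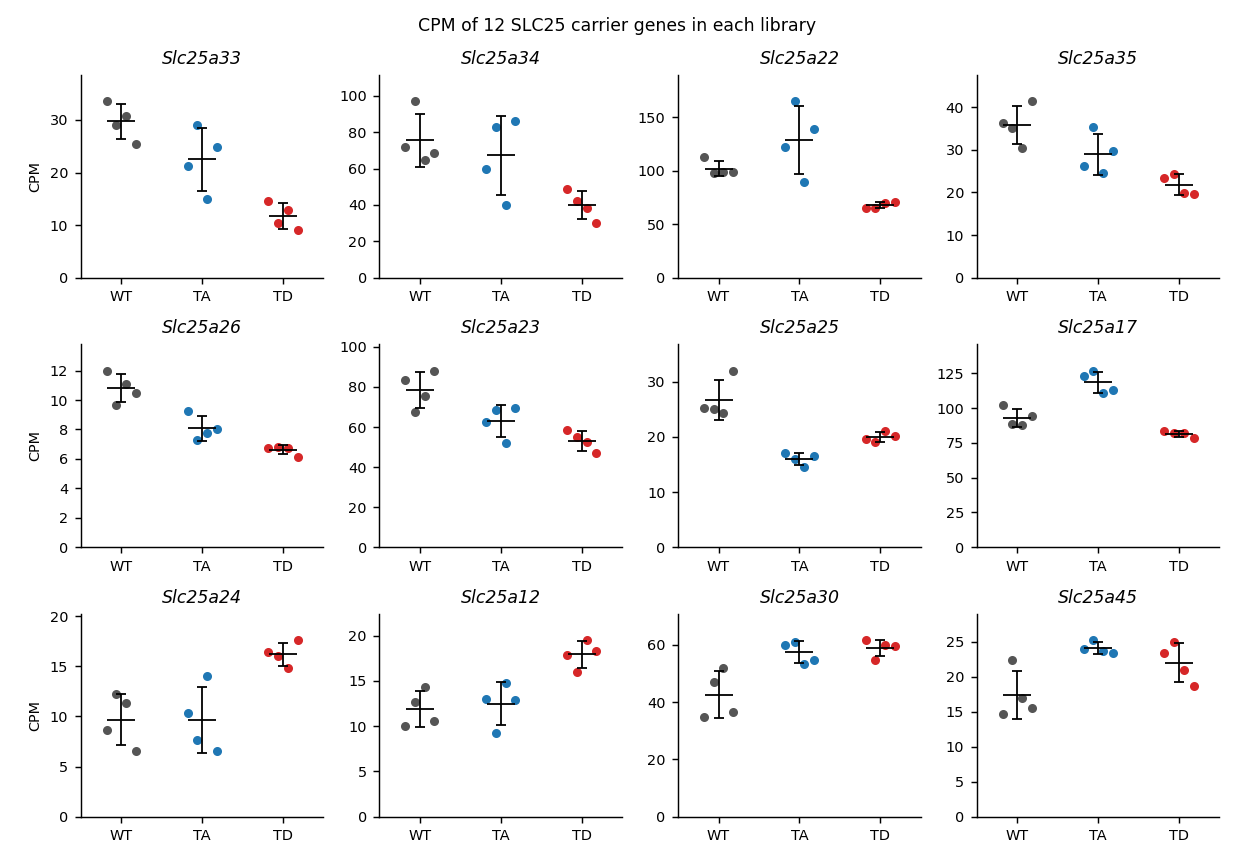
CPM of 12 members in each library, each panel from 0. Points are the libraries of WT (grey), TA (blue) and TD (red), and black bars give mean ± SD (n = 4). TD lies below WT without overlap in the panels of Slc25a33, Slc25a34, Slc25a22, Slc25a35, Slc25a26, Slc25a23, Slc25a25 and Slc25a17 and above WT in those of Slc25a24, Slc25a12 and Slc25a30, and it overlaps WT in that of Slc25a45.

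The 5 members not tested had few counts. Slc25a2 had 34 counts over the 12 libraries, Slc25a18 95, Slc25a21 13, Slc25a32 131 and Slc25a43 56. Slc25a32, a folate or FAD carrier, had 41 of its counts in TD replicate 4. Slc25a18, a glutamate carrier, overlaps on the opposite strand with Atp6v1e1, which had a mean of 3055.9 counts against 7.9, so its counts are uncertain.

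Paralogs that carry the same or similar substrates were set against each other as the log2 ratio of their counts within a library, a measure that does not depend on how libraries are scaled. In all, 6 pairs were compared between 3 genotype pairs, 18 tests. Slc25a4 against Slc25a5 had log2 ratios of -0.70, -0.72, -0.83 and -0.77 in WT, of -1.07, -0.99, -0.95 and -0.94 in TA and of -0.76, -0.72, -0.68 and -0.71 in TD. TA lay below every WT and TD library, with differences of -0.23 from WT to TA and of 0.27 from TA to TD, each with a two-sided exact permutation p of 0.0286 (0.0857 adjusted over the 18 tests). Slc25a23 against Slc25a25 had 1.72, 1.44, 1.63 and 1.46 in WT, 1.88, 2.10, 1.83 and 2.07 in TA and 1.58, 1.53, 1.31 and 1.22 in TD. TA again lay apart from both, with differences of 0.41 from WT to TA and of -0.56 from TA to TD (exact permutation p of 0.0286 each, adjusted 0.0857). Slc25a33 against Slc25a36 had -1.03, -1.38, -1.48 and -1.57 in WT, -1.93, -1.50, -2.61 and -1.52 in TA and -2.27, -2.83, -2.52 and -3.03 in TD. TD lay below WT by 1.30 and did not overlap it, with the same exact permutation p of 0.0286 (adjusted 0.0857). Slc25a39 against Slc25a40 was lower by 0.57 in TD than in WT, with means of 3.39 ± 0.17 and 3.96 ± 0.28 (SD) and again an exact permutation p of 0.0286 (adjusted 0.0857). With 4 against 4 libraries 0.0286 is the smallest p possible, and no pair was under 0.05 after adjustment. With this floor and 18 tests a shift in a single test could not pass, however large. The adjusted values therefore do not show that a ratio stayed the same. The ratios of Slc25a12 to Slc25a13 and of Slc25a28 to Slc25a37 overlapped in every comparison.

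**Figure D5:**
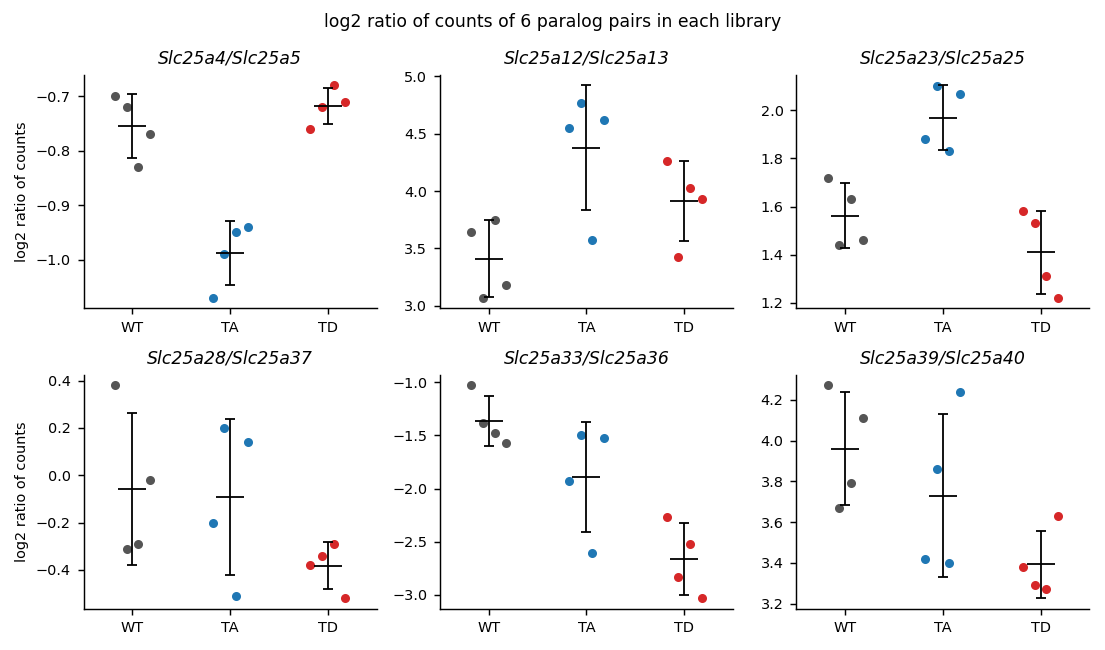
Log2 ratio of the counts of 6 paralog pairs in each library of WT (grey), TA (blue) and TD (red), with black bars for mean ± SD (n = 4). The vertical scale differs between panels. TA lies apart from WT and TD for Slc25a4/Slc25a5 and Slc25a23/Slc25a25, and TD lies below WT for Slc25a33/Slc25a36 and Slc25a39/Slc25a40.

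Other transporters and the enzymes that use what the carriers bring were read for comparison. Of 7 listed family members outside the rule, 6 were tested (Slc25a1, Slc25a20, Ucp2, Ucp3, Mtch1 and Mtch2), and Ucp1 was not among the genes tested. Of the 6, 5 were lower in TD than in WT, 3 were higher in TA than in WT, and all 6 were lower in TD than in TA. Over all genes, 14.1%, 6.48% and 9.33% were called in these directions. Ucp2 and Ucp3 had log2 fold changes of -0.66 and -0.87 in TD against WT (edgeR adjusted p = 0.00115 and 0.0249). In TA against WT Ucp3 had 0.96 (edgeR adjusted p = 0.0206) and Ucp2 -0.09, which did not pass. Slc25a1, which exports citrate for fatty acid synthesis, rose in TA by 0.83 on the log2 scale (edgeR adjusted p = 2.04e-06) and fell in TD by 0.27 (edgeR adjusted p = 0.0204). Slc25a20, the carnitine/acylcarnitine carrier of fatty acid oxidation, fell in TD by 0.68 (edgeR adjusted p = 4.74e-05). Of 23 mitochondrial transporters of other families, 13 were lower and 1 higher in TD against WT, with a median log2 fold change of -0.30 (14.1% and 14.9% of all genes tested). In TA 2 were higher (6.48% of all genes). Mpc2, a subunit of the pyruvate carrier, rose in TA by 0.58 (edgeR adjusted p = 0.000836) and fell in TD by 0.51 (edgeR adjusted p = 0.00124), both against WT. Among those that passed, the largest rise in TD was that of Sfxn3, a sideroflexin, at 0.78 (edgeR adjusted p = 0.000383), and the largest fall that of Smdt1, a subunit of the calcium uniporter, at -0.55 (edgeR adjusted p = 0.000905).

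Of 33 tested enzymes and proteins that use the carried substrates, 20 were lower and 1 higher in TD against WT (14.1% and 14.9% of all genes), with a median log2 fold change of -0.38. Among those that passed, the largest fall was that of Mthfd2, a folate enzyme of the matrix, at -0.85 (edgeR adjusted p = 7.6e-05). Bckdha and Bcat2, enzymes of branched-chain amino acid breakdown, fell by 0.80 (edgeR adjusted p = 0.000607) and 0.68 (edgeR adjusted p = 0.000919). The rise was that of Mthfd1l, at 0.46 (edgeR adjusted p = 0.0416). In TA against WT 2 were higher and 4 lower (6.48% and 4.32% of all genes). Gpd1, the cytosolic enzyme of the glycerol phosphate shuttle, rose by 1.41 (edgeR adjusted p = 2.79e-07) and Gclc, which begins glutathione synthesis, fell by 0.55 (edgeR adjusted p = 0.000138). In TD against TA 12 were lower and 1 higher (9.33% and 6.91% of all genes), with Gpd1 at -1.89 (edgeR adjusted p = 1.24e-08).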

How the data were processed

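RNA-seq was read in 12 libraries of cultured adipocytes, 4 each of WT, TA and TD, grouped by their sample labels. The authors sequenced on a NovaSeq instrument, aligned reads to GRCm38 (Ensembl) with HISAT2 2.0.1 and deposited raw read counts per gene. The submitters' processing notes also name bcl2fastq 2.17.1.14, cutadapt 1.9.1 and HTSeq 0.6.1. The strand setting of the counting is not given in the sources used here. Totals ran from 16553324 to 20324286 counts per library, which with 4 libraries a genotype sets the precision of low genes.

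The members and gene lists were chosen with earlier results of these data known. Genes were kept by filterByExpr (minimum count 10, minimum total 15), which left 15117. Counts were scaled by TMM (factors 0.957 to 1.04) and fitted with edgeR 4.0.16 in R 4.3.3, as a robust quasi-likelihood model of genotype over the 12 libraries (common coefficient of biological variation 12.9%), with two-sided tests and Benjamini-Hochberg adjustment over the genes tested. Log2 CPM used a prior count of 2, and paralog ratios a pseudocount of 0.5 and the exact permutation test of scipy 1.17.1. Alternatives were DESeq2 1.42.0, its size factors, library totals, other filters, a replicate block, the 8 libraries compared and each library left out. Exon lengths, positions and overlaps came from GENCODE M21, in which 99.8% of the gene IDs were found.

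Tested members are named, except 1 that is counted in the totals and is not reported here. Values in each library are given for Slc25a3, Slc25a4 and Slc25a5 and, in each comparison, for the 5 largest rises and 5 largest falls that reached a mean level of 5 CPM in at least 1 of the genotypes compared. The search for the hexamer AGGTCA alone was added after the other motifs had been seen. On simulated counts for TD against WT (14906 genes tested, 197 changed), 77.4% of genes changed by a fold of 2 and 35.4% of those changed by a fold of 1.41 were called, and 6.35% of the calls were false. In the data 28.9% of all genes were called, far more than were changed in the simulation. The adjustment depends on that share, so these rates need not hold for the data. Same-numbered libraries did not deviate together (12 correlations from -0.237 to 0.196), so the replicate numbers were not taken as pairs. Replicates of a genotype differed beyond counting noise in all 18 pairs (chi-square per degree of freedom 4.67 to 35.3).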

Additional observations from a re-analysis of the deposited data

Results flagged for a closer look

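In 108 sets of 4 libraries (36 members in 3 genotypes), 8 held a library whose gap to its nearest neighbour exceeded Dixon's critical share of the whole range, and chance alone gives about 1 in 20. In WT, replicate 1 was high for Slc25a22, at 113 CPM against 97.4 to 99.0 in the other libraries. Replicate 4 of WT was high for Slc25a25, at 32.0 CPM against 24.3 to 25.3, and low for Slc25a27, at 1.48 CPM against 2.73 to 2.88. In TD, replicate 1 was low for Slc25a14, at 2.33 CPM against 2.93 to 2.98, and for Slc25a36, at 70 CPM against 73.9 to 74.2. Replicate 2 of TD was high for Slc25a27, at 5.66 CPM against 4.26 to 4.36. Replicate 4 of TD was low for Slc25a26, at 6.16 CPM against 6.76 to 6.79, and high for Slc25a37, at 43.0 CPM against 39.1 to 39.6. No TA set was among the 8.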

How the results depend on the processing

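Of the members called, 17 of 22 in TD against WT, 2 of 6 in TA against WT (Slc25a17 and Slc25a25) and 7 of 14 in TD against TA were called under all 19 alternatives, and no called member changed sign. With libraries scaled by their totals, the median log2 fold change of the members was -0.20 in TD against WT and -0.12 in TD against TA, and the calls over all genes split into 2827 higher and 1562 lower in TD against WT (2245 and 2128 with TMM) and into 1712 and 974 in TD against TA (1045 and 1410). With no filter on low counts, 11 of 41 members were called in TA against WT, beside 7.36% of all genes. Leaving out each library gave 2 to 9 members called in TA against WT, 7 to 20 in TD against TA and 18 to 24 in TD against WT. The same fits called 1115 to 1919, 1395 to 3477 and 3134 to 4681 of all genes. Over all genes, calls in TD against TA fell from 2455 to 1395 without TA replicate 2, 1419 without TD replicate 4 and 1560 without TD replicate 3, and rose to 3477 without TA replicate 3. The cause of these shifts was not tested. With the replicate block, 22, 5 and 14 members were called in TD against WT, TA against WT and TD against TA, beside 4243, 1569 and 2419 of all genes. Of 12 libraries, 2 correlated best with their own number, so the numbers do not pair them. Genes with few counts limit what can be seen, as for the 5 members not tested.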
